A study of Drosophila simulans with 12 samples.

Results

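Alpha and beta tubulins are the paired proteins from which microtubules are built, and Drosophila makes several of each from separate genes. The genes examined here were the 8 tubulin genes betaTub85D, betaTub56D, betaTub60D, betaTub97EF, alphaTub84B, alphaTub84D, alphaTub85E and alphaTub67C, chosen by name from the gene symbols of the array annotation. Of these, 7 had a probe set on each array design, and alphaTub84B matched none and was not analysed here. They were represented by 7 of 18769 probe sets on the testis design and by 9 of 13966 non-control probe sets on the abdomen design, which named 11982 and 10844 genes in all.

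In Drosophila melanogaster, male germ cells switch from the general beta tubulin of betaTub56D to the testis-specific one of betaTub85D as they leave the spermatogonial divisions. The betaTub85D protein then serves the meiotic spindle, the cytoplasmic microtubules that elongate the spermatid and the axoneme of the sperm tail. Mutations in betaTub85D are known to make males sterile. The roles given below for single genes are likewise those known from D. melanogaster.

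RNA came from testis and from abdomen of D. simulans males, 3 to 4 days old, of 2 introgression lines. The sterile line carries the S variant and the fertile line the F variant of the OdsH locus, both from D. mauritiana and on the X chromosome, so neither line is pure D. simulans. As the series design states it, the introgressed segments differ in a stretch of about 3 Kb with exons 3 to 4 of OdsH, a homeobox gene, and each line and tissue was extracted and hybridised 3 times, which gave 12 arrays in 4 groups. On average 150 males were dissected for testis and 50 for abdomen. A single line stands for each genotype and the males were pooled. Whether the extractions used separate cultures is not stated, so the p-values rest on a spread between arrays that could be technical.

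Testis and abdomen RNA were hybridised to different Affymetrix designs, both made for D. melanogaster, so levels were compared between lines within a tissue only. No correction was made for probes that differ from the sequence of the introgression lines. Values are the deposited intensities on a linear scale, with 3 arrays per group, and fold changes are sterile over fertile on the log2(intensity + 16) scale. A difference was called where limma's Benjamini-Hochberg adjusted p, over all probe sets tested in that tissue, was under 0.05. Array medians were 212.2 to 216.2 in sterile and 219.4 to 221.9 in fertile testis, an offset that small fold changes depend on. Testis arrays of the same line correlated at 0.997 to 0.998 across probe sets and abdomen arrays at 0.905 to 0.937. Germline markers of testis had a summed intensity over 13 genes of 43915 to 44800 on the sterile and 45276 to 45878 on the fertile testis arrays. Bright genes weigh most in this sum, such as Mst98Ca, at 10185 in sterile and 9878 in fertile testis. By contrast, bam, not tested, was at 131 and 105 and vas at 45.4 and 50.2, below the array medians. Of the 11 germline markers tested in testis 2 were higher and 4 lower in the sterile line. Of all tested testis probe sets 22.6% were called higher and 37.8% lower, shares to set beside every count of markers in testis. Accessory gland markers gave signal in the testis samples too, with 1 of 9 tested genes higher and 4 lower and a summed intensity of 46849 to 48209 on the sterile and 50457 to 50926 on the fertile arrays. Midgut, muscle and fat body markers are given beside the tubulins they concern. In bulk samples such as these, fewer cells of a type and less RNA per cell cannot be told apart.

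In sterile testis betaTub85D was slightly higher and betaTub56D, betaTub60D and betaTub97EF were lower. betaTub65B, a beta tubulin gene outside the 8, also rose, by 0.08 ± 0.03 (SE) on the log2 scale. It was not assigned to the testis-specific or the general isoforms, so no general split between these kinds is claimed. Of the 6 tubulin probe sets tested, 2 rose, 3 fell and 1 did not pass, while 60.4% of all 9927 probe sets tested were called, 22.6% higher and 37.8% lower. That split depends on scaling, being 29.6% higher and 29.6% lower after median centring and 30.5% and 29.8% after quantile normalization. With so many probe sets called, a count of tubulins says little, and their sizes are described instead. The median log2 fold change of all tested probe sets was -0.04 as deposited and 0.01 after either scaling. The median absolute log2 fold change was 0.11 for the 6 tubulin probe sets and 0.14 for all tested probe sets. No tubulin changed by as much as 0.3 on the log2 scale, a size that 23.4% of all tested probe sets reached. The sterile and fertile arrays did not overlap in 4 of the 6, against 64.3% of all tested probe sets.

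betaTub85D, probe set 1624746_at, measured 5892, 5886 and 5822 on sterile replicates A, B and C and 5698, 5647 and 5691 on the fertile ones. All 3 sterile arrays lay above all 3 fertile arrays. The sterile mean was 5867 ± 38.6 (SD, n = 3) and the fertile mean 5678 ± 27.6. On the log2 scale the sterile line was higher by 0.05 ± 0.02 (SE), or 3.31%, with an adjusted p of 0.0234. The probe set stood among the brightest of the design in both lines, between the 98.7th and the 98.9th percentile of its array. The call is lost without sterile replicate A (adjusted p = 0.0549), fertile replicate A (0.0512), fertile replicate B (0.0818) or fertile replicate C (0.0511), and without the variance trend (0.135). The log2 fold change is 0.09 after median centring and 0.07 after quantile normalization. The summed signal of the germline markers, taken without scaling, was lower on every sterile array than on the fertile ones, but so were the array medians. Single markers went both ways, with 2 of 11 tested genes higher and 4 lower. The relation of these markers to betaTub85D was not tested.

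betaTub56D encodes the general beta tubulin found in most tissues, including the stem cells and spermatogonia of the testis. Its probe set 1636530_s_at measured 3603, 3728 and 3646 on the sterile and 3884, 3822 and 3840 on the fertile arrays. The suffix is the one Affymetrix gives to sets whose probes can match further transcripts. The signal may therefore not come from betaTub56D alone, which was not tested. Every sterile array was lower than every fertile array. The log2 fold change was -0.07 ± 0.02 (SE, adjusted p = 0.00536), so the signal fell by 4.91%. This call does not hold after median centring, where the log2 fold change is -0.03 (adjusted p = 0.337), nor without the variance trend (adjusted p = 0.0531).

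betaTub60D encodes a beta tubulin of mesodermal and other somatic cells, among them somatic cells of the testis. It measured 2810, 2706 and 2761 on the sterile arrays and 3123, 3199 and 3193 on the fertile arrays. The sterile values were the lower ones on all arrays, and the log2 fold change was -0.20 ± 0.02 (SE, adjusted p = 7.89e-07), so the signal fell by 12.9%. Across all 14 alternatives in processing it ran from -0.21 to -0.15 and stayed past the threshold. Among markers of somatic testis cells 2 of 4 tested genes were higher and none lower. Their summed intensity over 5 genes was 977.6 to 1065 on the sterile and 909.2 to 969 on the fertile arrays. The 2 called were the dim upd1, at 96.2 in sterile and 32.1 in fertile testis, and zfh1, at 114 and 81.4. The brighter eya and so did not pass, and tj, not tested, was at 143.5 in sterile and 153.6 in fertile testis. The part of these cells in the fall of betaTub60D was not tested. Muscle markers had 2 of 7 genes higher and 1 lower, with a summed intensity of 9187 to 9492 against 9057 to 9093.

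betaTub97EF, a beta tubulin gene known for expression in the gut and other somatic tissues, showed the largest difference of the tubulins tested. It measured 904, 899 and 954.6 on the sterile and 1126, 1127 and 1132 on the fertile arrays. All sterile arrays lay below the fertile ones, which differed little among themselves, with a coefficient of variation of 0.264% against 3.35% in the sterile line. The log2 fold change was -0.29 ± 0.03 (SE, adjusted p = 6.41e-07), so the signal fell by 18.3%. It ran from -0.32 to -0.22 across its 14 alternatives, past the threshold in each. Midgut markers fell in the same samples, in all 5 genes tested of 6 on the array. Their summed intensity was 1018 to 1035 on the sterile and 13450 to 13686 on the fertile arrays, none being at 0 on all arrays. The 3 tested fat body markers were lower as well. Over all 5 fat body genes on the array the summed intensity was 6333 to 6424 against 7730 to 7950. Fbp1 and Lsp2, not tested, were higher, at 255.9 and 250.1 in sterile and 218.5 and 222.8 in fertile testis. The part of these markers in the fall of betaTub97EF was not tested.

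alphaTub84D encodes one of a pair of nearly identical general alpha tubulins, the other being that of alphaTub84B. Its testis probe set, 1633624_s_at, carries the suffix that Affymetrix gives to sets whose probes can match more than 1 transcript, so its signal may include a near-identical transcript. It measured 3217, 3197 and 3369 on the sterile and 2965, 3082 and 3173 on the fertile arrays, with no overlap between the lines. In the authors' deposited table it was called present on 66% of the arrays of each line, so it did not enter the test. Among the 901 probe sets at least as bright, 21 were left out in this way. In the fit without a filter its log2 fold change was 0.09 ± 0.03 (SE, adjusted p = 0.0304, with 15.9% of all probe sets called higher), and with a filter on mean level, chosen after seeing the data, the adjusted p was 0.023 (22.7% called higher).

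alphaTub85E, an alpha tubulin gene with a more restricted expression in muscle, sense organs and testis, was higher in the sterile line but with a wide spread. Its values were 2840, 2394 and 2612 on the sterile and 2294, 2407 and 2351 on the fertile arrays. Sterile replicate B lay inside the fertile range, so the groups overlap. The log2 fold change was 0.15 ± 0.04 (SE, adjusted p = 0.00606), so the signal was 11% higher. It dropped to 0.09 on the log2 scale without sterile replicate A, the highest array, and the call was lost without the variance trend (adjusted p = 0.0814).

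alphaTub67C encodes the maternal alpha tubulin of the oocyte and early embryo. It was dim in testis, at 53.1, 64.6 and 42 on the sterile and 53.1, 44.8 and 49.6 on the fertile arrays, between the 7.27th and the 15.3rd percentile of the design. The lines overlapped and the log2 fold change of 0.08 ± 0.13 (SE, adjusted p = 0.647) did not pass, with a 95% interval of -0.21 to 0.36. The deposited table calls this probe set present on all 6 arrays. Of 1833 probe sets as dim or dimmer, 165 were called present often enough to be tested.

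**Figure D1:**
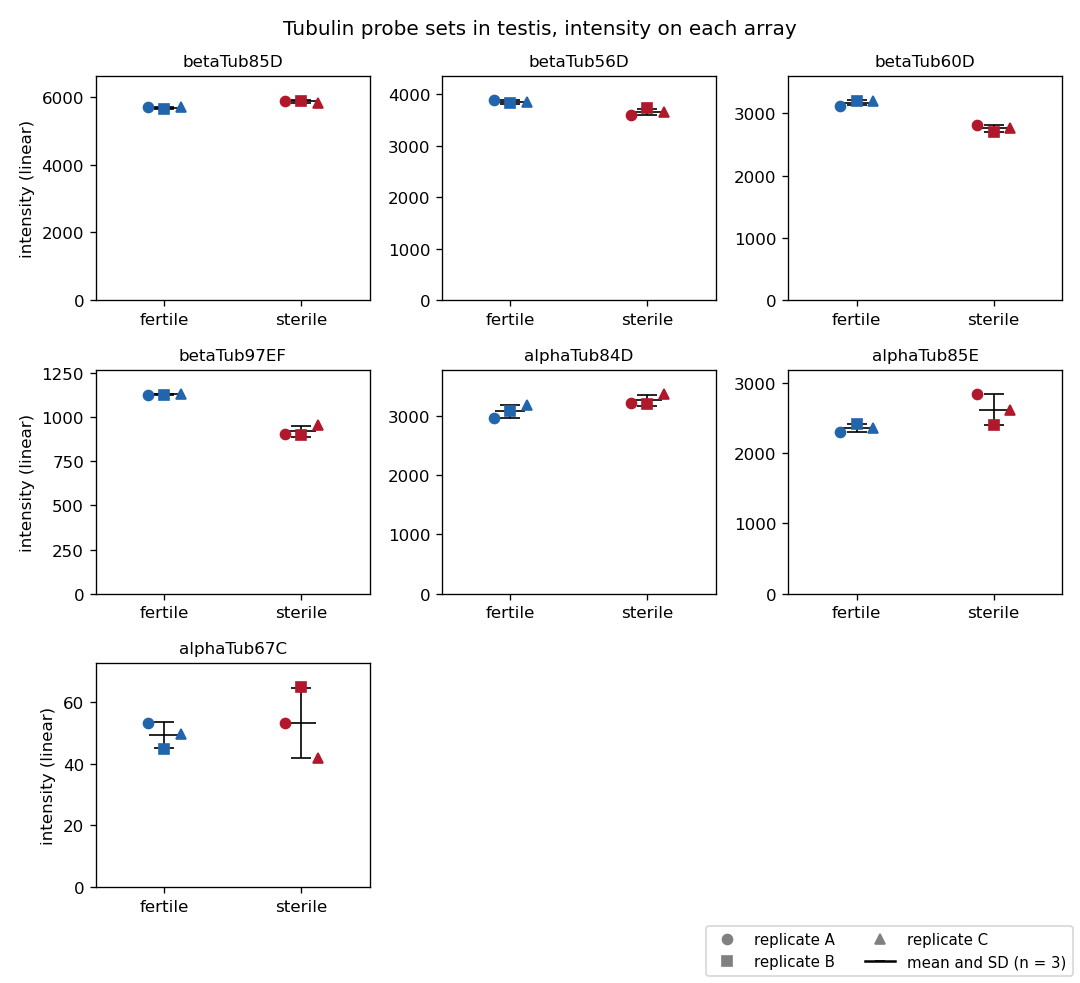
Intensity (linear scale, from 0) of the 7 tubulin probe sets on each testis array, fertile in blue and sterile in red, with a symbol for each replicate letter and black bars for the mean and SD (n = 3). The sterile arrays of betaTub85D and alphaTub84D lie just above the fertile ones, those of betaTub56D, betaTub60D and betaTub97EF below them, and alphaTub85E and alphaTub67C overlap.

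Whether the testis-specific and the other tubulins changed unequally was asked within each array, where a constant scaling of the array cancels but for the pseudocount. On each testis array the log2 value of betaTub85D minus that of another tubulin present on all 6 arrays was taken, which gave 5 comparisons. These differences are not ratios of transcript amounts, since probe sets differ in brightness per transcript, and only their change between lines is described. The exact two-sided permutation test over 3 against 3 arrays cannot give a p below 0.1, so none could pass.

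Against betaTub56D the within-array log2 difference was 0.71, 0.66 and 0.67 on the sterile arrays and 0.55, 0.56 and 0.57 on the fertile ones. It was thus higher on every sterile array, by 0.12 ± 0.02 (SE). The change was 0.25 ± 0.02 against betaTub60D and 0.34 ± 0.03 against betaTub97EF, again with no overlap between the lines. All 5 comparisons share the betaTub85D values. The probe sets of betaTub85D and of these 3 beta tubulins each showed no overlap on their own, as did 64.3% of all tested probe sets. For each of these 3 the exact permutation p was 0.1, the smallest possible, and 0.167 after Benjamini-Hochberg adjustment over the 5 comparisons. Against alphaTub85E the change was -0.10 ± 0.07 (exact permutation p = 0.3, adjusted 0.375) and against alphaTub67C -0.03 ± 0.14 (exact permutation p = 0.9), with overlapping lines for both. The betaTub85D signal was therefore higher relative to betaTub56D, betaTub60D and betaTub97EF on all sterile arrays, by amounts between 1.09-fold and 1.26-fold. The betaTub56D probe set may also read further transcripts, so the change against it cannot be credited to that isoform alone. betaTub65B was not among these comparisons.

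**Figure D2:**
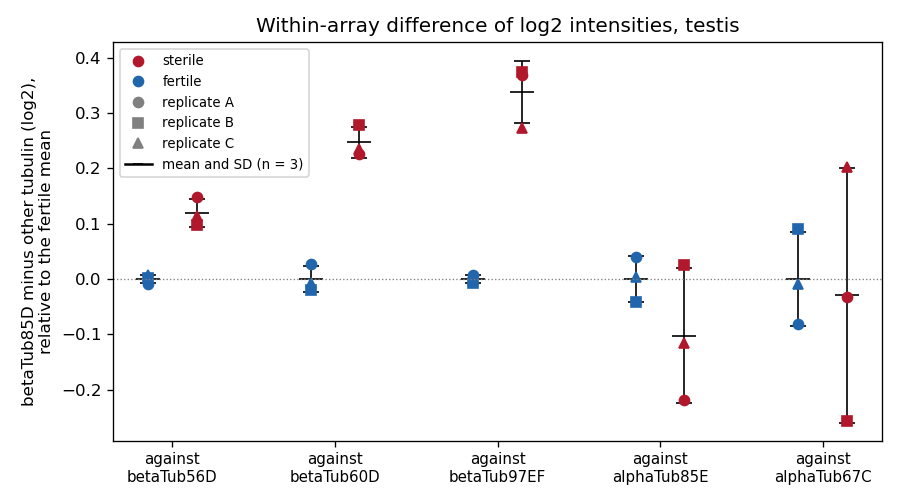
Within-array difference of log2 intensities in testis, betaTub85D minus the tubulin named on the x axis, relative to the mean of the fertile arrays. Points are arrays and black bars the mean and SD (n = 3), and the sterile arrays lie above all fertile ones for the 3 beta tubulins. For alphaTub85E sterile replicates A and C lie below the fertile arrays and replicate B among them, and for alphaTub67C the sterile arrays lie on both sides.

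In abdomen no tubulin probe set passed limma's test between the lines. Of 9 probe sets 8 were bright enough to be tested, and 0 were higher and 0 lower, where 0.544% of all 6983 tested probe sets were called, 0.258% higher and 0.286% lower. None of the 8 had an unadjusted p under 0.05, which 8.12% of all tested probe sets had. With the replicate letter as a block 65 rather than 38 of all probe sets were called (0.931%), and again none of the tubulins. Replicates varied far more in abdomen, with a median residual SD on the log2 scale of 0.30 against 0.05 in testis, and the 95% interval of every tubulin probe set included changes of the size called in testis for betaTub85D.

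The labels do not say whether the testes were left in the abdomens. Some germline markers of testis were bright in abdomen, with Mst98Ca at 14962 in sterile and 16708 in fertile males and Mst87F at 10248 and 8605. Others were dim, such as bam at 27.3 and 25.1. The origin of this signal in abdomen was not tested. betaTub85D was measured there at 329.1, 292.4 and 458.8 on the sterile and 534.4, 438.9 and 523.6 on the fertile arrays. Sterile replicates A and B lay below the fertile arrays and sterile replicate C among them. The log2 fold change was -0.47 ± 0.25 (SE, adjusted p = 0.703), with a 95% interval of -1.03 to 0.08. Its probe set lay between the 57.9th and the 75.6th percentile of the abdomen design. Of 7 germline markers of testis tested in abdomen none passed, with a median log2 fold change of -0.15 and summed intensities that overlapped between the lines, 31148 to 37547 on the sterile and 29764 to 40219 on the fertile arrays.

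betaTub97EF measured 2254, 2582 and 2355 on the sterile and 2590, 3185 and 2816 on the fertile abdomen arrays. It was the only tubulin probe set in abdomen whose groups did not overlap, where 14.1% of all tested probe sets did not. Its log2 fold change of -0.25 ± 0.14 (SE, adjusted p = 0.738; 95% interval -0.57 to 0.07) did not pass. The midgut markers, in contrast to testis, had no called gene among 6 tested in abdomen, and their summed intensities overlapped at 195657 to 278359 on the sterile and 215037 to 271347 on the fertile arrays. The 95% interval of betaTub56D was -0.22 to 0.49, that of the brighter betaTub60D probe set -0.35 to 0.27 and that of alphaTub85E -0.49 to 0.21.

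The alphaTub84D gene had 2 bright probe sets in abdomen, and they gave similar results. The first, 141709_i_at, measured 8704 ± 1241 (SD, n = 3) in sterile and 8202 ± 867 in fertile males, and the second, 141710_r_at, 7504 ± 477 and 7328 ± 536. Their log2 fold changes were 0.08 ± 0.14 (SE) and 0.03 ± 0.12. The 2 probe sets of betaTub60D disagreed in level: 143392_r_at measured 1936 ± 52.2 in sterile and 1993 ± 137 in fertile males, while 143391_i_at measured 77.7 ± 84 and 48.3 ± 15.8 and lay below the filter. The abdomen set of alphaTub85E, 143389_f_at, carries the suffix given to sets that match a sequence family, so it may also read other alpha tubulins, and the 6496 ± 1047 in sterile and 7138 ± 812 in fertile males cannot be credited to alphaTub85E alone.

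alphaTub67C showed the widest spread of the tubulins tested in abdomen. It measured 480.3, 941.8 and 352.3 on the sterile and 265.3, 974.6 and 238.7 on the fertile arrays, so replicate B was the highest in both lines. Its log2 fold change was 0.43 ± 0.53 (SE, adjusted p = 0.89) and 0.43 ± 0.24 with the replicate letter as a block (adjusted p = 0.558). It was 0.046 without sterile replicate B, 0.084 without fertile replicate C, 0.16 without fertile replicate A, 0.74 without sterile replicate C and 1.06 without fertile replicate B, so single arrays set its size.

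**Figure D3:**
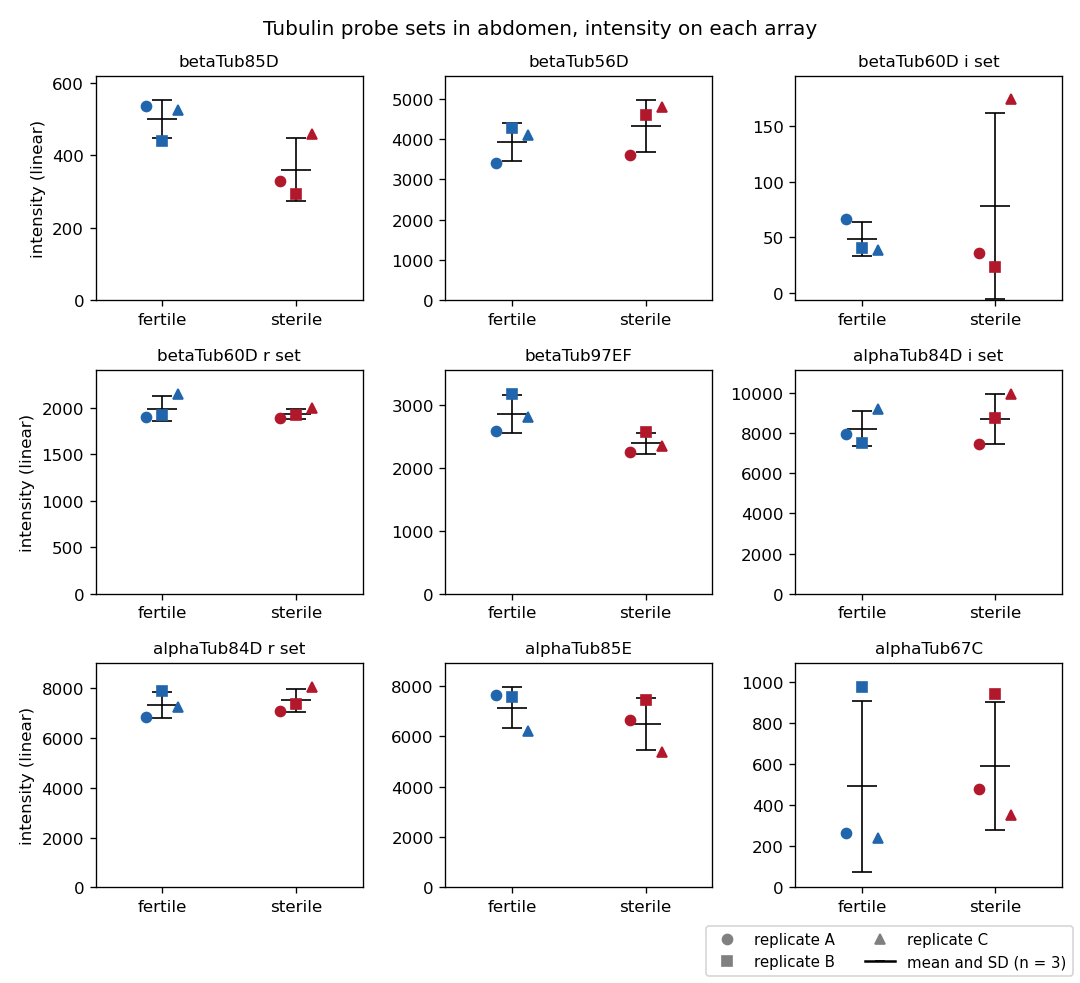
Intensity (linear scale) of the 9 tubulin probe sets on each abdomen array, fertile in blue and sterile in red, with a symbol for each replicate letter and black bars for the mean and SD (n = 3). The groups overlap for all but betaTub97EF, and replicate B is high in both lines for alphaTub67C.

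In abdomen too betaTub85D was set against each other tubulin within the array, a comparison added after seeing the data, with 6 pairs. Its log2 difference to betaTub56D was -3.54 ± 0.31 (SD, n = 3) in sterile and -2.94 ± 0.30 in fertile males, a change of -0.61 ± 0.25 (SE). The lines did not overlap there or against alphaTub84D, where the change was -0.55 ± 0.16. The exact permutation p was 0.1 for both, the smallest possible, and 0.3 after adjustment over the 6 pairs. The other 4 pairs overlapped, with adjusted exact p-values of 0.4 to 0.6. Of all single probe sets tested in abdomen 14.1% did not overlap, and for pairs of probe sets no such share was taken. The letters were taken to pair the abdomen arrays, from correlations in these data and not from the labels. On that basis the sterile and fertile values were also compared within letters. The difference was lower in the sterile line in 3 of 3 letters against betaTub56D, betaTub60D, alphaTub84D and alphaTub67C, and in 2 of 3 against betaTub97EF and alphaTub85E. betaTub85D alone was lower in 3 of 3 letters, by a mean log2 change of -0.47 ± 0.15 (SE of the 3 differences alone). In limma's fit with the replicate letter as a block this change was -0.47 ± 0.23 (SE, adjusted p = 0.505) and did not pass. All 6 pairs share these betaTub85D values, so they are not separate results. An exact permutation within 3 letters cannot give a p below 0.25, the value found wherever all 3 letters went one way. The change against betaTub56D was thus 0.12 in testis and -0.61 in abdomen, neither past the threshold, and the difference between these changes was not tested.

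Whether the difference between lines itself varied between tissues was tested with all 12 arrays for 4774 genes tested in both, 6 of them tubulins. The log2 fold change in testis minus that in abdomen was 0.52 ± 0.20 (SE, 95% interval 0.09 to 0.95) for betaTub85D, the largest of the 6, and did not pass after adjustment (unadjusted p = 0.0218, adjusted p = 0.174). An unadjusted p under 0.05 was found in this limma fit for 1 of the 6 tubulins and for 18.6% of all genes. This fit uses 1 spread for both tissues although abdomen arrays varied more, and its SE for betaTub85D is smaller than that of the abdomen fold change alone. With the spread of each tissue kept apart, added after seeing the data, the difference was 0.52 ± 0.25 and its interval of -0.03 to 1.07 included 0 (unadjusted p = 0.0631, adjusted p = 0.357, with 3.27% of all genes called). Without abdomen sterile replicate C, the array on which betaTub85D was highest in that line, the difference was 0.70. It then passed with 1 spread (adjusted p = 0.0087) but not with the spreads apart (adjusted p = 0.238), and over all 21 alternatives the adjusted p ran from 0.0087 to 0.357. The differences were 0.29 ± 0.17 for alphaTub85E, -0.21 ± 0.16 for betaTub56D, -0.16 ± 0.10 for betaTub60D and -0.04 ± 0.13 for betaTub97EF, and -0.36 ± 0.66 for alphaTub67C. None of these passed (adjusted p = 0.403 to 0.917), where 5.38% of all genes did. The value of -0.04 for betaTub97EF reflects log2 fold changes of -0.29 in testis and -0.25 in abdomen, with a 95% interval of the difference of -0.33 to 0.25.

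**Figure D4:**
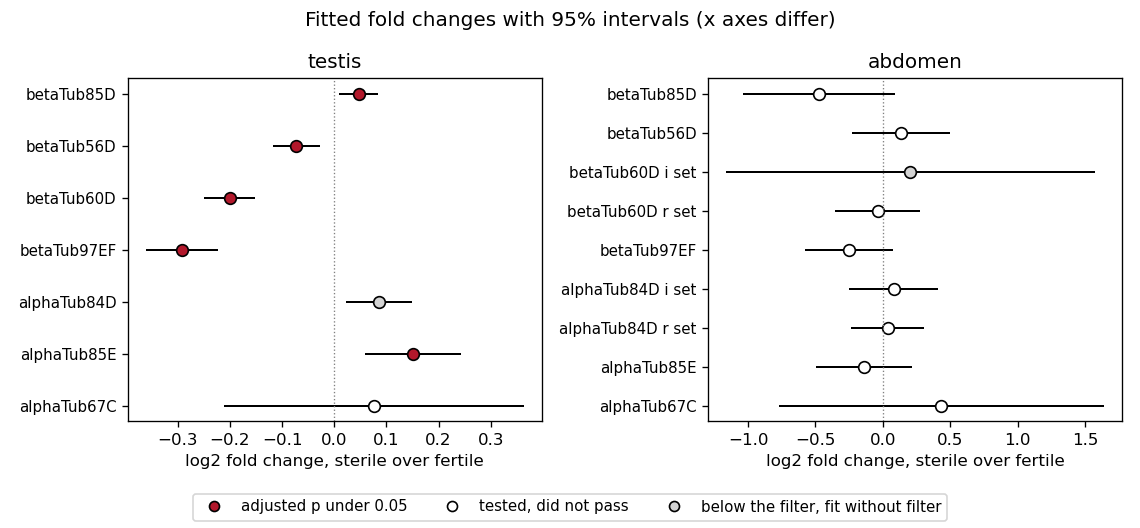
Log2 fold changes, sterile over fertile, of each tubulin probe set with 95% intervals in testis and in abdomen, on different x axes. Filled red points passed in limma's test, open points did not, and grey points lay below the filter and come from the fit without one. The testis intervals of the 5 called probe sets exclude 0, while all abdomen intervals include it.

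The position of a probe set within its own array describes each design separately, and since the designs hold different probe sets, positions are not compared between tissues. On the testis arrays betaTub56D lay between the 96.4th and the 96.7th percentile and betaTub97EF between the 80.6th and the 83.1st. On the abdomen arrays betaTub56D lay between the 95.9th and the 97th percentile, betaTub97EF between the 94.2nd and the 95.9th and alphaTub67C between the 52.5th and the 86.5th. Replicate error in testis differed between tubulins, with coefficients of variation of 0.486% and 0.657% for betaTub85D, 2.88% and 3.38% for alphaTub84D, up to 8.52% for alphaTub85E and up to 21.3% for the dim alphaTub67C.

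The genes whose testis pattern was most like that of betaTub85D were trpl, CG5516, CG13978, CG12118 and Pgant7, with Pearson's r of 0.994 to 0.997 over the 6 testis arrays. The 6 points fall into 2 lines, so r mostly records the direction of the difference between lines, and 1298 probe sets (13.1% of those tested) had an r of at least 0.9. The log2 fold changes of these 5 genes were 0.10 to 0.29, all larger than that of betaTub85D. Among the tubulins r with betaTub85D was -0.98 for betaTub97EF, -0.95 for betaTub60D and -0.85 for betaTub56D, and 0.67 for alphaTub85E and 0.47 for alphaTub67C.

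In the authors' deposited table, which gives a signed fold score that, by its values, is negative where the sterile line is brighter, no tubulin was marked as differing in testis. The scores in the authors' deposited table were -1.03 for betaTub85D, 1.05 for betaTub56D, 1.15 for betaTub60D, 1.23 for betaTub97EF and -1.12 for alphaTub85E. Its p-values were 0.00132 for betaTub60D and 0.00371 for betaTub97EF, and 0.0579 to 0.629 for the other 5 in the authors' deposited table. That table describes the same testis comparison, so it is no independent check.

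Genes that nucleate, fold, modify or bind microtubules moved in both directions in testis. The list held 59 genes, of which 49 matched a probe set and 46 were tested, and 11 rose, 18 fell and 17 did not pass, shares near the 22.6% and 37.8% of all probe sets. The excess of falls depends on scaling, with 16 higher and 15 lower after median centring and 16 and 14 after quantile normalization. The median log2 fold change was -0.05, against -0.04 for all tested probe sets. In abdomen 0 of 28 tested genes passed limma's test, where 0.544% of all probe sets did. An unadjusted p under 0.05 was found for 6 of the 28, and for 8.12% of all tested abdomen probe sets.

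Other members of the tubulin superfamily are named because only 3 were measured, which was decided after their values were seen. betaTub65B, a further beta tubulin gene, measured 1945 ± 96.5 (SD, n = 3) in sterile and 1833 ± 60.7 in fertile testis, a rise with an adjusted p of 0.0409. CG7794, an alpha tubulin-like gene, rose from 1572 ± 55.3 to 1800 ± 83.5, by 0.19 ± 0.03. gammaTub37C, the maternal gamma tubulin, did not pass, with a log2 fold change of -0.02 ± 0.05.

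Of 9 tested nucleation genes 2 rose and 2 fell, and t-Grip84, a testis paralog of a subunit of the gamma tubulin complex, rose by 0.24 ± 0.03 (SE) from 2216 ± 90.7 to 2618 ± 50.3. Among 14 enzymes that modify tubulin, chiefly ligases that add glutamate or glycine chains, 3 rose and 6 fell. Sirt2, a deacetylase, rose from 1292 ± 27.6 to 1793 ± 26.2, by 0.47 ± 0.03 (adjusted p = 2.41e-10). Of 19 tested genes of microtubule dynamics and severing 4 rose and 10 fell, with a median of -0.19. The counts of these groups are for intensities as deposited, where 22.6% of all tested probe sets were higher and 37.8% lower. The only tested gene of those listed as folding cofactors, mlt, did not pass, so nothing is said of these cofactors as a group.

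The largest rise of the list was that of Map60, a microtubule-associated protein of the centrosome, which went from 128.7 ± 12.1 in fertile to 344.2 ± 12.8 in sterile testis (SD, n = 3). Its log2 fold change was 1.32 ± 0.07 (SE, adjusted p = 6.41e-11). In abdomen it measured 447.7 ± 145 in sterile and 433 ± 90.6 in fertile males. The largest falls were those of genes for microtubule-binding proteins. tau fell from 218.3 ± 12.3 to 117.9 ± 14.9, by 0.81 ± 0.08, and ens, which encodes the kinesin cofactor ensconsin, from 985.1 ± 0.716 to 570.4 ± 9.59, by 0.77 ± 0.03 (adjusted p = 5.45e-12). Map205 fell from 464.5 ± 22.6 to 312.4 ± 35.6, by 0.55 ± 0.07. In abdomen tau and ens did not pass, with log2 fold changes of 0.49 ± 0.28 and 0.44 ± 0.18. Each of these genes had 1 probe set in testis, so no second probe set bears on its value.

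**Figure D5:**
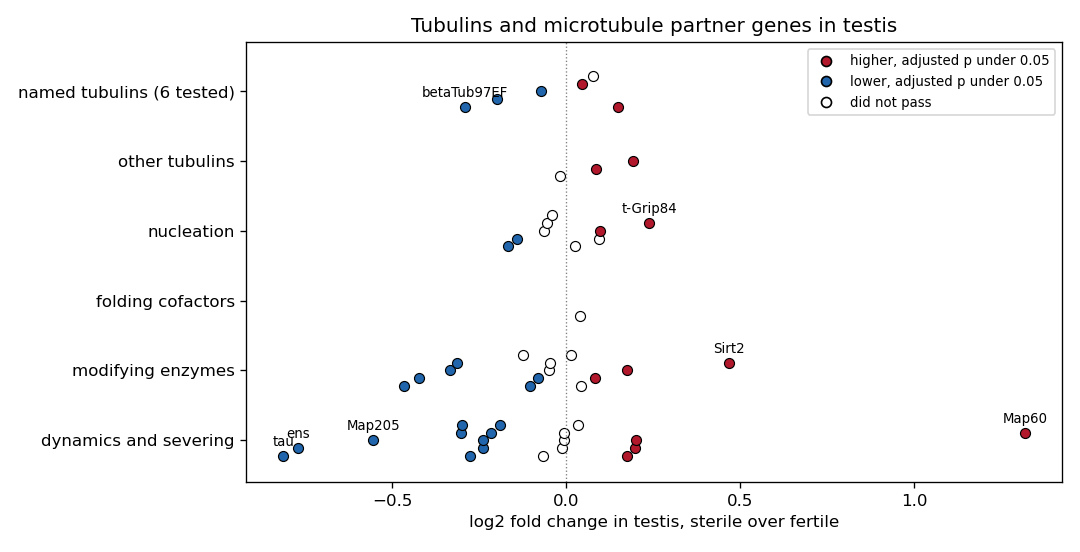
Log2 fold changes in testis, sterile over fertile, of the 6 tested tubulins and of the tested genes of the microtubule list by role; each point is a gene, red or blue where it passed limma's test and open where it did not. The tubulins lie between -0.29 and 0.15, inside the range of -0.81 (tau) to 1.32 (Map60) of the list.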

How the data were processed

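The authors deposited intensities for 12 arrays. MAS5 is named in the submitters' processing notes, yet each testis array holds 26 to 37 deposited intensities below 0, which that method does not give, so how they were made is not given in the sources used here. The authors' deposited table of the testis comparison holds, per the file headers, present calls as a percent, a signed fold score and p-values. The 12 columns of single arrays in it stayed out, since testis and abdomen samples bear the same names. Intensities below 0 were set to 0 and log2(intensity + 16) was taken. Testis probe sets entered the test where either line had 3 present calls (9927 of 18769). Abdomen probe sets entered at or above the median level (6983 of 13966), without the 44 controls. Each tissue was fitted with limma 3.58.1 in R 4.3.3 (lmFit, eBayes with an intensity trend). In gene lists and in the difference between tissues the brightest probe set stood for a gene, and symbols came from the platform annotation. Same-lettered arrays deviated together in abdomen (correlations 0.15 to 0.29), so the letters were taken to pair those samples, from the data and not from the labels. Named are all tubulins, the 3 largest called rises and falls of the microtubule list in testis, any gene of it called in abdomen, and the 5 genes most correlated with betaTub85D. The tubulins, lists and tests were chosen with earlier results of these data known. The fits were tested on simulated data. The number of arrays limits the precision.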

Additional observations from a re-analysis of the deposited data

How the results depend on the processing

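The alternatives were median centring, quantile normalization, pseudocounts of 1 and 64, no filter, no variance trend, the replicate letter as a block and each array left out, plus a filter on mean level in testis, chosen after seeing the data. Of the values of single tubulins, 74 of the testis alternatives kept direction and call, 8 lost the call and 1 reversed. Without the variance trend 0 rather than 2 tubulin probe sets were higher in sterile testis, and leaving out 1 array gave 1 to 2. The change of betaTub85D minus betaTub97EF was 0.28 after quantile normalization. With 1 array left out, that of betaTub85D minus alphaTub67C ran from -0.15 to 0.085 (0.016 without fertile replicate B), and the testis log2 fold change of alphaTub67C from -0.040 to 0.20. In abdomen the ranges were -0.018 to 0.19 and -0.015 to 0.090 for the alphaTub84D probe sets and -0.070 to 0.017 for betaTub60D. The difference between tissues of betaTub97EF was 0.010 after median centring and 0.021 after quantile normalization, and -0.12 to 0.030 with 1 array left out, where that of alphaTub67C ran from -0.99 to 0.030 and 0 to 1 tubulin genes passed as higher. Of all abdomen probe sets 18 were higher and 20 lower, 8 and 7 without the trend, 26 and 39 with the replicate block, and 9 to 12 and 11 to 19 with 1 array left out. For the difference between tissues the counts of 74 and 183 became 31 to 149 and 96 to 282 with 1 array left out. With the spread of each tissue kept apart, also added after seeing the data, they were 46 and 110, and 32 and 87 when abdomen sterile replicate C was left out as well. The cause of these shifts was not tested. The block changed no tubulin call in either tissue or in their difference, and no count of the microtubule list. In testis, where 3 of 6 arrays matched their own letter best (correlations -0.07 to 0.15), it gave 2295 higher and 3822 lower, against 2245 and 3750. Dim probe sets such as alphaTub67C limit what can be seen.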
